A study of Polypedilum vanderplanki with 84 samples.

Results

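A set of 150 genes of the sleeping chironomid Polypedilum vanderplanki was examined, all of which reached their highest mean level late in the preconditioning of Pv11 cells, at 24, 36 or 48 h in trehalose. Expression was measured as TPM, a level corrected for transcript length that sums to the same total in each library, and the TPM of a gene was the sum over its transcripts. Of 18248 genes listed, 8783 were eligible, having an ID that starts with g, a mean TPM above 1 over all 84 libraries, and a level 1 h after heat shock less than 2-fold above the control. The ARId1 cluster of anhydrobiosis genes, the heat shock factor gene, the NF-Y subunit genes and g7775 were set aside. Among the eligible genes, 258 had their highest mean of the 10 time-course groups at 24, 36 or 48 h of preconditioning and a ratio R of at least 3, where R is the highest group mean plus 1 over the lowest group mean plus 1. The 150 with the largest R were taken.

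Pv11 is a cell line derived from this midge that can be revived from the dry state after a preincubation in trehalose. The time-course data had been reported before by the study's authors. Their preconditioning mixture was mostly 600 mM trehalose with a minor part of medium. Cells were held in this mixture and sampled at 0, 12, 24, 36 and 48 h (PreCondTre). They were then dried and put back in medium, and sampled at 0, 3, 12, 24 and 72 h (Rehydration). In a separate experiment, untreated Pv11 cells (Control) and cells in IPL-41 medium exposed to 600 mM trehalose, 600 mM mannitol, NaCl (0.5% in the labels), 20 µM paraquat or a 15 min heat shock at 42 °C (Heat) were sampled after 1, 3 and 24 h. Each of the 28 groups had 3 libraries, 30 in the time course and 54 in the stress experiment. The study's methods call the 3 stress libraries of a group biological replicates without saying whether these were separate cultures, and p-values here measure the spread between these libraries.

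Anhydrobiosis is the ability to survive the loss of nearly all cell water. In P. vanderplanki it is known to rest on trehalose, a non-reducing sugar thought to replace water around membranes and proteins and to form a glass on drying, and on proteins such as the late embryogenesis abundant (LEA) proteins. Mannitol is a sugar alcohol that raises osmolarity without adding ions, NaCl raises osmolarity and ion strength together, and paraquat produces superoxide inside cells. The sources used here pair none of the 150 IDs with a gene name, a product or a position, so the genes are given by their IDs and no role is assigned to them.

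The libraries listed 11842 to 13991 genes above 0, and rank correlations with the other libraries of the same group ran from 0.953 to 0.996 with a median of 0.987. Depth is unknown, since TPM do not keep it. Not every library was closest to its own group. In the time course, 4 of 30 libraries correlated better with another group by over 0.01. The library labelled PreCondTre 12 h replicate 3 had a rank correlation of 0.983 with the 24 h group and 0.965 with its own. The library labelled PreCondTre 36 h replicate 3 had 0.990 with the 48 h group and 0.953 with its own, and replicates 1 and 2 of 36 h were closest to the 24 h group. Counts and steps that involve 12 or 36 h are therefore also given without PreCondTre 12 h replicate 3 and PreCondTre 36 h replicate 3. In the stress experiment 6 of 54 libraries showed such a margin, among them all 3 of Control 3 h. The 3 h counts and the genes named at 3 h are therefore also given with each Control 3 h library left out in turn. The others were Mannitol 1 h replicate 1, NaCl 1 h replicate 2 and Heat 24 h replicate 3. This heat library had a rank correlation of 0.989 with Control 24 h and 0.977 with its own group. All libraries of Control 24 h, Trehalose 24 h and NaCl 24 h were closest to their own group.

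The genes were chosen by their mean TPM in these same time-course groups, which are therefore described without a test. Of the 150 genes, 21 were highest at 24 h, 27 at 36 h and 102 at 48 h. Among all eligible genes, whatever their R, 96, 100 and 585 were highest at these hours. The majority at 48 h is thus not particular to the set. Their highest group means spanned 3.83 to 5150 TPM with a median of 72.1 TPM, and R ran from 3.86 to 39.4 with a median of 5.16. Without the 2 libraries that resembled a later group, 138 of the genes stayed among the 150 and 147 still met the rule. Then 18 were highest at 24 h, 36 at 36 h, 93 at 48 h and 3 at 12 h.

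The median step between groups was widest from 0 to 12 h. The median step of the 150 genes on the log2(TPM + 1) scale was 0.90 from 0 to 12 h, 0.30 from 12 to 24 h, 0.28 from 24 to 36 h and 0.19 from 36 to 48 h. Without the 2 libraries these steps were 0.87, 0.31, 0.17 and 0.20. By 12 h, 72 genes were more than 2-fold above their 0 h mean, or 68 without these libraries. At 0 h 32 genes already stood at 0.5 or more of their maximum. Of the other 118 genes, 65 had reached that level by 12 h, or 64 without these libraries. The level rose at each step from 0 to 48 h in 57 genes, or in 38 without the 2 libraries. A dip at 24 h below both 12 and 36 h was seen in 27 genes, or 26 without these libraries.

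The genes then fell across drying and rehydration. From PreCondTre 48 h to Rehydration 0 h, 142 genes had a lower mean, 26 of them by more than 2-fold, and the median step was -0.57. The median steps that followed were -0.16 to 3 h, -0.20 to 12 h, -0.42 to 24 h and -0.50 to 72 h, and 29 genes fell at each step. At 72 h of rehydration 82 genes lay within 2-fold of their level before preconditioning, 45 were more than 2-fold below it and 23 more than 2-fold above it. The lowest mean was at PreCondTre 0 h in 51 genes, at Rehydration 72 h in 61 and at Rehydration 24 h in 20. The maximum was at least 2-fold above 0 h in 117 genes and less than that in 33, whose range lay mostly between the maximum and the lowest rehydration groups.

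**Figure D1:**
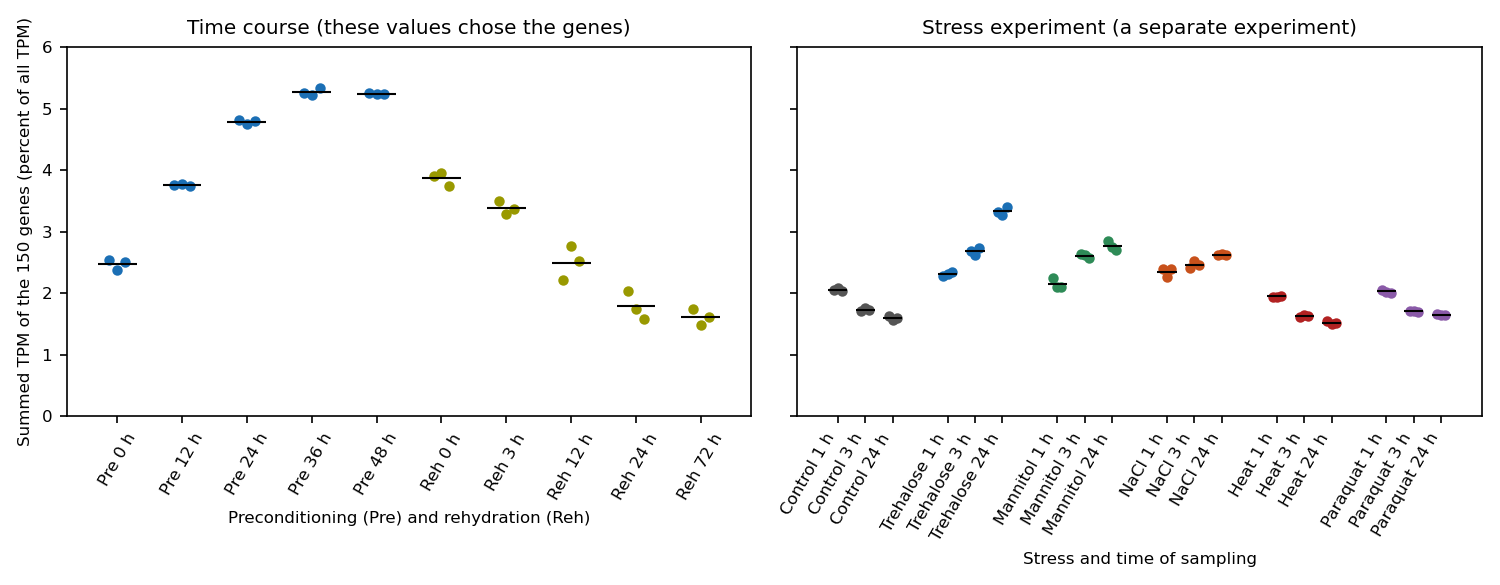
Summed TPM of the 150 genes as a percent of all TPM in each library, in the time course (left) and in the stress experiment (right), with points for libraries and bars for group means. The share rose from 2.48% at PreCondTre 0 h to 5.27% at 36 h and fell to 1.61% at Rehydration 72 h, and in the stress experiment it was highest at Trehalose 24 h with 3.33%.

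Together the genes held 2.48% ± 0.09 of all TPM at PreCondTre 0 h (SD, n = 3), 3.76% ± 0.02 at 12 h, 4.79% ± 0.04 at 24 h, 5.27% ± 0.06 at 36 h and 5.24% ± 0.01 at 48 h. The share was 3.87% ± 0.11 at Rehydration 0 h, 3.39% ± 0.11 at 3 h, 2.50% ± 0.28 at 12 h, 1.78% ± 0.23 at 24 h and 1.61% ± 0.13 at 72 h. With TPM, less RNA of these genes per cell and more RNA of other genes cannot be told apart. When each library was scaled to equalise the median gene (median ratio scaling), 144 of the genes still met the rule, but so did 613 genes in all, and 95 of the 150 stayed among the 150 with the largest R.

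Among genes highest at 24 h, g2540 read 7.51, 10.1 and 8.14 TPM at PreCondTre 0 h, 57.8, 60.8 and 53.97 at 24 h, and 1.71, 1.65 and 2.36 at Rehydration 72 h. For g13097 the 3 libraries read 26.3, 27.1 and 27.3 TPM at 0 h, 67.2, 78.9 and 71.5 at 24 h, and 3.83, 2.19 and 1.25 at Rehydration 72 h. The 0 h, maximum and 72 h libraries of both genes did not overlap, and both were high by 12 h, g13097 at 62.5 to 70.9 TPM. The gene g8155 belonged to those set by the fall: it read 65.0, 73.1 and 60.9 TPM at 0 h, 104, 108 and 109 at 24 h, and only 2.93, 4.05 and 3.22 at Rehydration 72 h. In contrast, the 12 h libraries of g577 disagreed, with 2.59, 3.98 and 42.2 TPM, where replicate 3 is the library that resembled 24 h. This gene read 34.4, 41.5 and 29.6 TPM at 24 h, and all 15 libraries of rehydration listed it at 0.

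Among genes highest at 36 h, g4830 read 2.37, 1.19 and 1.48 TPM at 0 h and 56.8, 56.0 and 48.8 at 36 h. Its libraries stood at 28.5, 31.2 and 27.5 TPM right after drying, and at 6.79, 5.14 and 6.36 after 72 h in medium. The plateau held at 48 h, with 54.1, 54.5 and 52.8 TPM. The far more abundant g5325 read 145, 152 and 139 TPM at 0 h, 1003, 962 and 822 at 36 h, and 83.3, 57.7 and 72.5 at Rehydration 72 h. For g6599 the values were 219, 201 and 206 TPM at 0 h, 702, 649 and 635 at 36 h, and 96.3, 52.4 and 54.6 at Rehydration 72 h, and for g1984 they were 56.7, 52.9 and 52.1, then 133, 125 and 118, then 6.96, 3.76 and 3.41 TPM. In all 4 genes the 36 h libraries lay above every 0 h library, and the 72 h libraries of g5325, g6599 and g1984 lay below every 0 h library. These gaps too are favoured by the choice of genes with a large R.

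Among genes highest at 48 h, g12927 rose at each step, from 7.33, 6.55 and 7.77 TPM at 0 h to 153, 180 and 163 at 48 h. It fell to 77.6, 77.4 and 78.7 TPM across drying and to 24.1, 14.4 and 20.2 at Rehydration 72 h. At a far lower level g9776, which dipped at 24 h, had 0.70, 0.46 and 0.49 TPM at 0 h and 23.6, 27.1 and 23.0 at 48 h. The gene with the largest R, g3255, read 476, 432 and 467 TPM at 0 h, 762, 728 and 726 at 48 h, and 15.1, 14.9 and 23.3 at Rehydration 72 h. Its range came from rehydration, and its maximum was 1.61-fold above 0 h. For g4339 the libraries of one group disagreed, with 258, 264 and 645 TPM at 36 h, where replicate 3 is the library that resembled 48 h, and with 574, 644 and 643 TPM at 48 h.

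**Figure D2:**
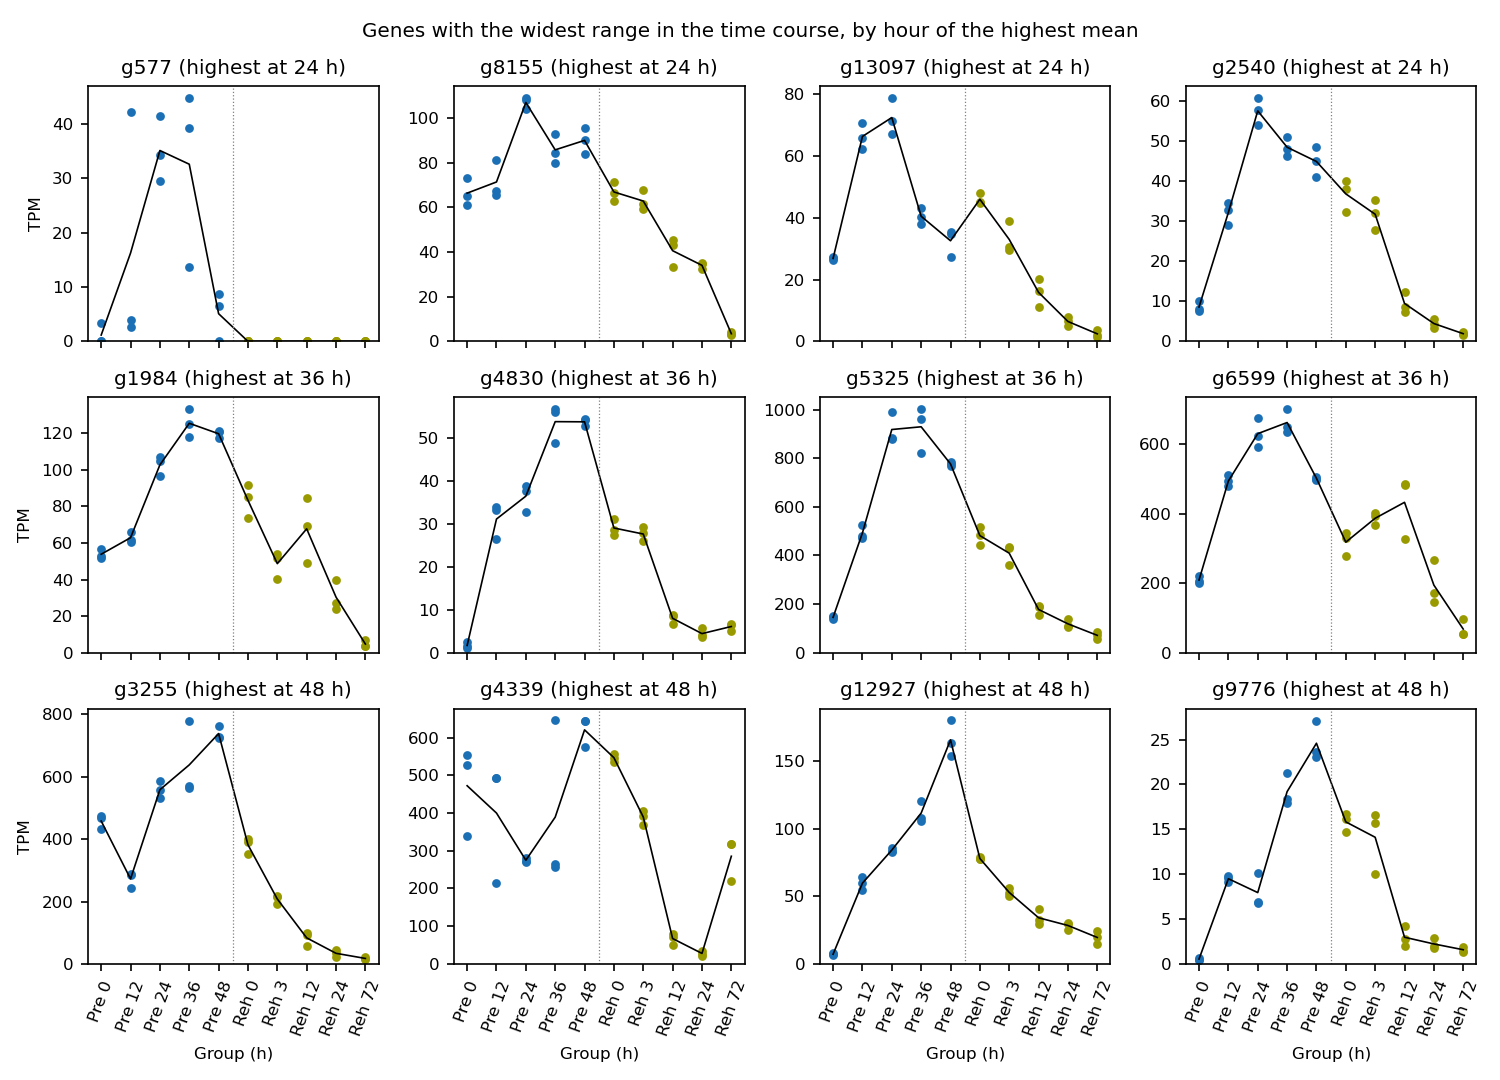
TPM of 12 genes in the time course, the 4 with the largest R among those highest at 24, 36 and 48 h (rows), with points for libraries, a line through group means and a dotted line at drying. Genes such as g12927 climb to 48 h from a low start, whereas g3255 and g8155 start high and owe their range to the fall to Rehydration 72 h.

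The most abundant gene was g13487, for which libraries read 1638, 1708 and 1589 TPM at 0 h, 5275, 5018 and 5159 at 24 h, and 2128, 1845 and 1986 at Rehydration 72 h, a return to near the starting level. The next 4 peaked at 36 h, at a mean of 4044 TPM for g14182, 3550 TPM for g7482, 3137 TPM for g6296 and 2787 TPM for g5473. All 4 stood below their 0 h level at Rehydration 72 h, with means of 577, 635, 754 and 690 TPM in the same order. At 0 h the means were 2266, 1187, 2337 and 2379 TPM, so g7482 stayed within 2-fold of its start. At the other end of the set, 29 genes had a maximum under 10 TPM.

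The limit on R did not fall in a gap. Just inside it stood g13992 with an R of 3.89, g6285 with 3.861 and g10712 with 3.856, and just outside it g16692 with 3.852, g3850 with 3.84 and g14110 with 3.83. The maxima were 177, 3.83 and 12.1 TPM for the genes inside and 83.7, 420 and 383 TPM for those outside.

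The stress experiment asked which of these genes respond when cells that were never dried are given trehalose or another stress, and it is independent of the time course apart from the filter on mean level and on heat at 1 h. The changes below are differences of log2(TPM + 1) from limma, a linear model fitted here to all 54 libraries and 9450 genes, and a gene was called changed where it moved more than 2-fold and its p, adjusted by the Benjamini-Hochberg method over all genes tested, was under 0.05. Each stress was set against the control of the same time, so stresses at one time share their 3 control libraries. All 150 genes passed the filter, and 143 had a mean above 1 TPM within the 54 stress libraries.

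After 24 h in trehalose, 80 of the 150 genes rose and 2 fell, while 6.99% of all genes tested rose and 10.3% fell. In 79 of the 80, the 3 trehalose libraries lay above all 3 controls. The call itself favours such a gap, which was also present in 59 of the 60 genes raised in mannitol and all 34 raised in NaCl. It adds no evidence about the set. The median change of the 150 genes was 1.06 against -0.13 over all genes tested, and 137 genes had a change above 0. After 24 h in mannitol, 60 genes rose and 1 fell, against 8.46% and 4.76% of all genes, with a median of 0.95. After 24 h in NaCl, 34 genes rose and 6 fell, against 7.75% and 11.2% of all genes, with a median of 0.36. The share of the set that rose thus stood above that of all genes under each of the 3 osmolytes.

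At 24 h, 23 genes rose under all 3 osmolytes, against 1.96% of all genes, and 58 rose under none, while 15.2% of all genes rose under at least 1. Trehalose and mannitol without NaCl accounted for 26 genes, trehalose alone for 24, mannitol alone for 8, trehalose and NaCl for 7, NaCl and mannitol for 3, and NaCl alone for 1. The shares of all genes with each of these patterns were not computed, so no pattern is read as particular to the set. A call in one osmolyte and not in another is no test of a difference between them, so the osmolytes were also compared directly.

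Trehalose was set directly against NaCl at 24 h. The doses were stated in mM for trehalose and mannitol and in percent for NaCl, and their osmotic strengths were not compared here. Contrasts with NaCl therefore do not separate the kind of solute from its dose, and an effect of dose was not tested. Of the 150 genes 50 were higher in trehalose and 3 were lower, whereas 8.78% and 8.34% of all genes were. With the replicate number as a block in a fit of these 6 libraries, 51 were higher and 4 lower. Against mannitol, 14 genes were higher in trehalose and 4 lower, with 1.27% and 3.49% for all genes, and after the median gene was equalised between libraries these were 19 and 2. Without Mannitol 24 h replicate 1, or without replicate 2, 2 genes were lower, and without replicate 3 of every group 12 were. Mannitol 24 h replicate 3 had a rank correlation of 0.973 with Trehalose 24 h and 0.972 with its own group. NaCl set against mannitol gave 8 higher and 29 lower genes, with 4.62% and 9.15% for all genes.

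**Figure D3:**
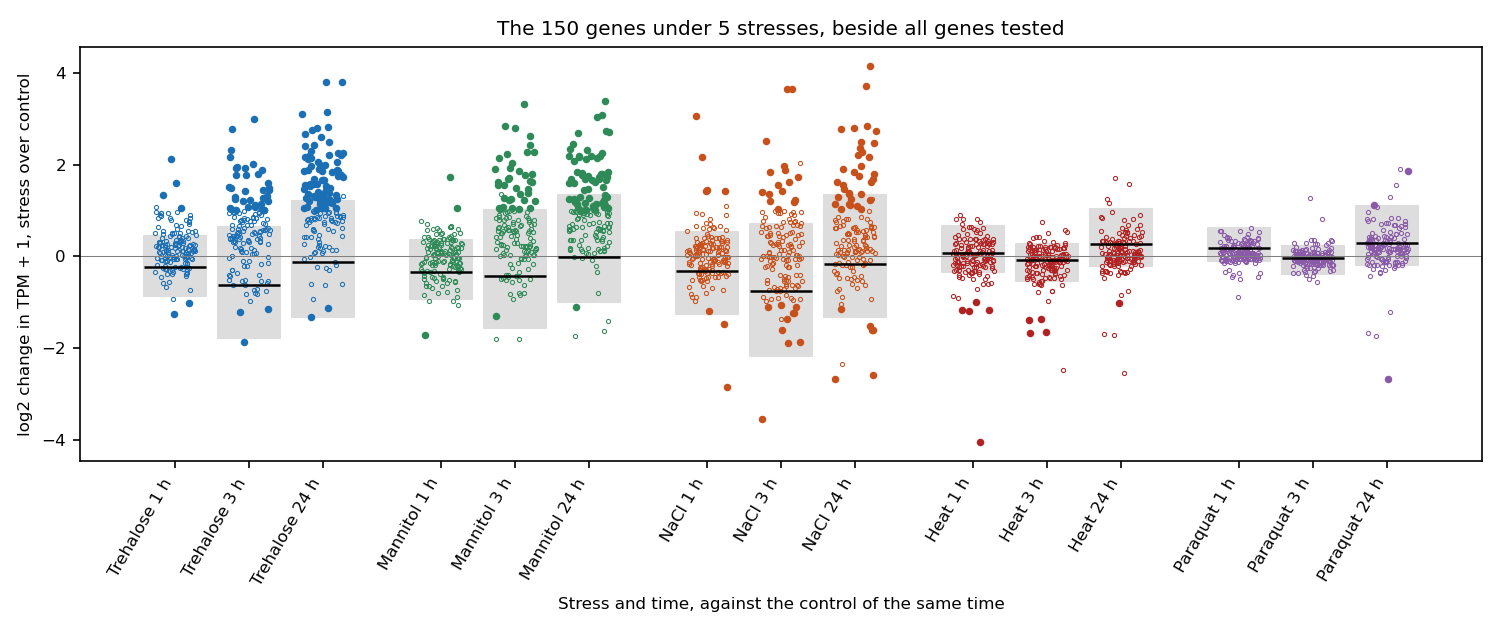
Change of each of the 150 genes under 5 stresses against the control of the same time, on the log2(TPM + 1) scale, with filled points for genes called changed and open points for the rest. Grey boxes span the 5th to 95th percentile of all genes tested and black bars their median. At 24 h the points lie above the median of all genes under trehalose, mannitol and, less so, NaCl, with medians of 1.06, 0.95 and 0.36, and they lie around 0 after heat and paraquat.

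The largest rise in trehalose was that of g4830, which read 0.92, 1.36 and 1.16 TPM in Control 24 h and 26.8, 31.8 and 28.8 in Trehalose 24 h. Its levels in NaCl (8.54, 8.72 and 9.45 TPM) and mannitol (10.1, 9.20 and 8.35 TPM) lay between. The 4 groups separated into control, then NaCl and mannitol together, then trehalose. The change was 3.81 ± 0.21 (SE) in trehalose, with an adjusted p of 4.5e-19, and 1.60 ± 0.21 for trehalose over NaCl, with an adjusted p of 1.8e-08.

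Next came g17497, which read 1.86, 1.70 and 1.52 TPM in the control, 34.5, 36.2 and 38.6 in trehalose, 36.5, 32.1 and 34.4 in NaCl and 7.35, 3.21 and 5.33 in mannitol. The trehalose and NaCl libraries overlapped and stood far above mannitol. The change was 3.80 ± 0.25 in trehalose and 3.71 ± 0.25 in NaCl, and trehalose exceeded mannitol by 2.63 ± 0.25 with an adjusted p of 3.8e-11 in limma. The gene g16708 ranked differently, with 12.4, 7.34 and 7.19 TPM in the control, 82.5, 73.8 and 101 in trehalose, 78.0, 52.4 and 62.8 in mannitol and 32.4, 37.0 and 36.3 in NaCl. All 3 osmolytes raised it, by 3.15 ± 0.18 in trehalose, 2.73 ± 0.18 in mannitol and 1.90 ± 0.18 in NaCl, and the trehalose and mannitol libraries overlapped.

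Salt had its own leading gene. For g7936 the control libraries read 270, 250 and 246 TPM and the NaCl libraries 4627, 4691 and 4363, while trehalose gave 850, 803 and 782 and mannitol 663, 578 and 618. Each osmolyte raised it without overlap with the control, and NaCl far more than the others. The change was 4.15 ± 0.06 in NaCl with an adjusted p of 3.0e-37, and trehalose stood below NaCl by -2.49 ± 0.06. The rise was present at 1 h, when g7936 read 161, 166 and 146 TPM in the control and 1319, 1336 and 1300 in NaCl. In the time course, where the cells met trehalose, its highest mean was 1389 TPM. After g7936 and g17497, the largest rise in NaCl was that of g9825, which read 7.74, 6.71 and 9.55 TPM in the control and 58.7, 62.6 and 67.9 in NaCl, a change of 2.84 ± 0.24, and mannitol gave 71.2, 69.4 and 39.0 TPM, which overlap with NaCl.

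Trehalose and NaCl set some genes far apart. The largest excess of trehalose over NaCl was in g12927, with 36.4, 38.3 and 48.8 TPM in trehalose, 3.29, 3.22 and 3.91 in NaCl and 9.45, 3.95 and 5.33 in the control. The trehalose libraries lay above all control and NaCl libraries, and the NaCl libraries just below all controls. Mannitol gave 49.8, 46.0 and 35.7 TPM, which overlap with trehalose. The difference between trehalose and NaCl was 3.23 ± 0.20 with an adjusted p of 4.6e-17. For g4089 the control read 100.1, 109 and 100.2 TPM, trehalose 347, 308 and 263, mannitol 158, 156 and 166, and NaCl 32.0, 34.9 and 32.7, with no overlap between any of the groups. It rose by 1.55 ± 0.11 in trehalose and fell by 1.60 in NaCl (SE 0.11), with adjusted p values of 5.6e-15 and 1.8e-15 in limma.

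The reverse was seen for g6257, with 88.1, 83.2 and 95.9 TPM in the control, 33.4, 40.5 and 48.6 in trehalose and 177, 175 and 177 in NaCl. Trehalose lay below NaCl by -2.10 ± 0.12 with an adjusted p of 2.2e-18 in limma. Against the control its change was -1.12 in trehalose, a call that became -0.96 and was lost once the median gene was equalised, and 0.98 in NaCl, which became 1.16 and was then called. The other gene that fell in trehalose, g14308, read 41.1, 38.2 and 42.2 TPM in the control and 13.0, 16.7 and 17.2 in trehalose, and its NaCl and mannitol libraries, between 16.2 and 21.7 TPM, were low as well. Its change in trehalose was -1.33 ± 0.12. This gene was low early in the time course too, with a mean of 15.3 TPM at PreCondTre 12 h, before its maximum of 69.9 TPM at 48 h. Besides g7936 and g6257, g4339 was lower in trehalose than in NaCl, by -1.12 ± 0.30.

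**Figure D4:**
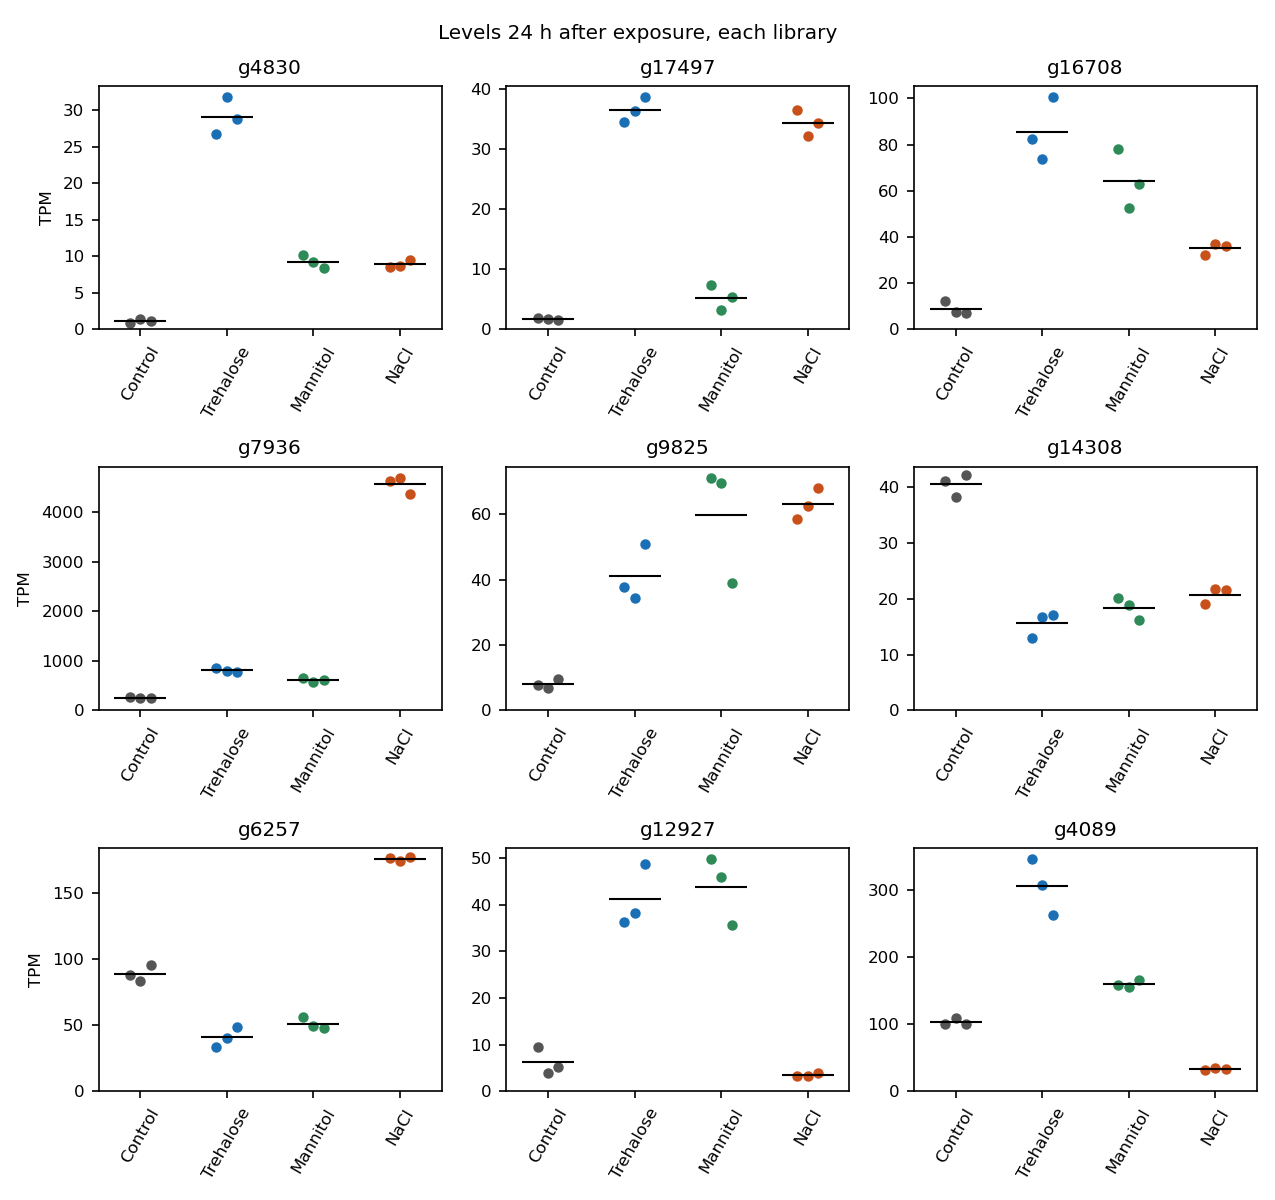
TPM of 9 genes in the libraries of Control, Trehalose, Mannitol and NaCl 24 h after exposure, with bars for group means. They are the genes with the largest rises in trehalose and NaCl, the largest falls in trehalose and the largest differences between trehalose and NaCl. The lowest NaCl library of g7936 reads 4363 TPM, and g12927 and g4089 are lowest in NaCl.

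Other genes of the time course behaved unevenly. The abundant g5325 read 84.7, 85.9 and 76.5 TPM in the control, 606, 563 and 595 in trehalose, 422, 383 and 447 in mannitol and 107, 105 and 105 in NaCl, and trehalose exceeded NaCl by 2.46 ± 0.06. For g2540 the order differed, with mannitol highest at 39.9, 39.6 and 33.1 TPM, trehalose at 17.0, 21.0 and 16.1 and the control at 2.92, 4.13 and 3.55, and trehalose was -1.02 ± 0.19 from mannitol with an adjusted p of 3.9e-05 in limma. In contrast, g3255, the gene with the largest R, read 131, 119 and 132 TPM in the control and 123, 122 and 158 in trehalose at 24 h. These libraries overlapped and the change was 0.07 ± 0.12. At 3 h its trehalose libraries, at 197, 184 and 176 TPM, did lie above the controls at 75.8, 86.7 and 76.0, a change of 1.21 ± 0.12 with an adjusted p of 9.5e-12, or 1.18 to 1.28 with single Control 3 h libraries left out.

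Of the 5 most abundant genes, 2 passed 2-fold at Trehalose 24 h. The gene g7482 rose by 1.24 ± 0.08 and g14182 by 1.05 ± 0.05, while the changes of g13487 (0.83), g5473 (0.43) and g6296 (0.32) stayed under 2-fold. For g577 the libraries of one group ranged from 0 to 22.8 TPM at Trehalose 24 h, and its call for trehalose over NaCl (adjusted p of 0.047 in limma) was lost under most alternatives.

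The calls in trehalose were also counted by time-course behaviour. Of the 117 genes that rose at least 2-fold over 0 h, 71 rose at Trehalose 24 h, with a median of 1.22, and of the other 33 genes 9 did, with a median of 0.75. By hour of the maximum, 12 of 21 genes highest at 24 h, 17 of 27 highest at 36 h and 51 of 102 highest at 48 h rose. Of the 95 genes at 0.5 or more of their maximum at 12 h, 30 of which were there at 0 h, 56 rose, and of the other 55 genes 24 did. These differences between subsets were not tested.

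At 3 h the unscaled counts were lower than at 24 h. In trehalose 36 genes rose and 3 fell, against 2.37% and 27.8% of all genes. In mannitol 37 rose and 1 fell, against 4.59% and 20.6%, and in NaCl 16 rose and 10 fell, against 2.85% and 37.1%. The median over all genes was below 0 at this time, at -0.62 in trehalose, -0.43 in mannitol and -0.75 in NaCl, and the 3 control libraries differed among themselves. Relative to the median gene, 90 genes rose and 1 fell in trehalose, 73 rose and 0 fell in mannitol, and 62 rose and 4 fell in NaCl, while 8.84%, 10% and 12.1% of all genes rose. The scaled counts at 24 h were 96 in trehalose, 64 in mannitol and 40 in NaCl, against 9.68%, 9.27% and 11.1% of all genes. In mannitol and NaCl the order of the hours thus turned with the scaling. Without single Control 3 h libraries the unscaled counts ran from 28 to 42 in trehalose, 32 to 50 in mannitol and 17 to 22 in NaCl, and the 10 genes that fell in NaCl became 19 without replicate 1. Of the 36 genes raised at Trehalose 3 h, 32 were also raised at 24 h, and the matching numbers were 31 of 37 in mannitol and 15 of 16 in NaCl.

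The largest change at Trehalose 3 h was that of g5325, at 2.99, followed by g4936 at 2.78, and in NaCl at 3 h g4936 (3.65) and g7936 (3.65) led. With each Control 3 h library left out in turn, g5325 ran from 2.96 to 3.01 and g4936 from 2.67 to 2.85 in trehalose, and in NaCl g4936 ran from 3.54 to 3.72 and g7936 from 3.62 to 3.66. Across the 3 osmolytes, 12 genes fell at 3 h, against 45.1% of all genes, and 21 did without Control 3 h replicate 1. At 24 h 8 genes fell under at least 1 osmolyte, against 18.4% of all genes.

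The difference between the 24 h and the 3 h response was tested as an interaction term in the same limma fit, added after the data were seen. In trehalose the response of 36 genes was larger at 24 h and that of 2 smaller, against 14.6% and 0.751% of all genes, or 15.3% in either direction. In mannitol 23 were larger and 2 smaller, against 10.7% and 0.487%, or 11.2% in either direction. In NaCl 23 were larger and 3 smaller, against 24.7% and 0.497%, or 25.2% in either direction. Relative to the median gene these were 15 and 4 in trehalose, 7 and 5 in mannitol and 10 and 18 in NaCl. Over all genes tested the scaled counts were 391 and 429, 198 and 230, and 536 and 553 in the same order. The direction of the balance thus turned with the scaling in NaCl for the set, and in each osmolyte over all genes. Without single Control 3 h libraries the genes that differed in either direction ran from 29 to 43 in trehalose, 18 to 29 in mannitol and 20 to 36 in NaCl, and those larger at 24 h in mannitol were 15 without replicate 2.

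Few of the genes passed 2-fold at 1 h. In trehalose 4 genes rose and 2 fell, against 0.677% and 2.57% of all genes, in NaCl 5 rose and 3 fell, against 1.74% and 10.4%, and in mannitol 2 rose and 1 fell, against 0.434% and 3.39%. At an unadjusted p under 0.05 in limma, with no limit on fold, more genes differed. These were 69, 68 and 58 in trehalose, NaCl and mannitol, against 4178, 5070 and 4745 of the 9450 genes tested. In all, 6 genes rose under at least 1 osmolyte, against 2.06% of all genes. With the median gene equalised, 16 rose and 0 fell in trehalose, 14 rose and 2 fell in NaCl, and 3 rose and 1 fell in mannitol. Over all genes tested these were 134 and 73 in trehalose, 326 and 328 in NaCl, and 107 and 35 in mannitol. The genes raised under all 3 osmolytes at 1 h, named after their values were seen, were g4936 and g12488. For g4936 the control libraries read 16.0, 14.3 and 12.2 TPM, against 67.2, 60.4 and 66.2 in trehalose, 66.8, 66.5 and 66.8 in NaCl and 70.1, 38.6 and 43.8 in mannitol. No osmolyte library overlapped with a control, and the change in trehalose was 2.12 ± 0.13 with an adjusted p of 1.2e-15.

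Heat and paraquat changed few of the 150 genes and few of all genes tested. The rule left out genes raised 2-fold or more by heat at 1 h, so later rises after heat are not independent of it. After heat no gene of the 150 rose at 3 or 24 h, against 0.19% and 1.7% of all genes, and 4 fell at 3 h and 1 at 24 h, against 0.296% and 0.0847%. At an unadjusted p under 0.05 in limma, 45 genes differed at 3 h and 46 at 24 h in either direction. Of the 9450 genes tested, 1309 and 4081 did. The 4 genes of the set that fell at 3 h, named after their values were seen, were g4339, g1928, g13362 and g10434. All 4 kept the call with each Control 3 h library left out in turn, and 5 genes fell without replicate 1. Of these g13362 was also lower at 24 h: it read 525, 438 and 521 TPM in Control 3 h and 193, 178 and 188 in Heat 3 h, then 282, 249 and 263 in Control 24 h and 130.2, 127 and 134 in Heat 24 h. Heat and control libraries did not overlap at either time, and the changes were -1.40 ± 0.07 and -1.01 ± 0.07, with adjusted p values of 1.5e-18 and 1.4e-13. Without single Control 3 h libraries the change of g13362 at 3 h ran from -1.49 to -1.35. Heat at 1 h served to choose the genes, which fixed the count of rises at 0, and 5 genes fell there (1.15% and 0.127% of all genes rose and fell). Nothing is read from these values.

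Paraquat changed 0 of the 150 genes at 1 and 3 h by the adjusted limma test, against 0% of all genes. At an unadjusted p under 0.05 the test gave 11 and 8 genes of the set, and 1456 and 472 of the 9450 tested. The adjusted count at 3 h was also 0 with each Control 3 h library left out in turn. At 24 h 2 genes rose (g1627 and g16541) and 1 fell (g6417), against 2.84% and 0.0635% of all genes, and no call remained with the median gene equalised. Over heat at 3 and 24 h and paraquat, 7 of the 150 genes were called in either direction, a share close to the 4.12% of all genes. This number was 4 without Control 24 h replicate 2 or 3 or Paraquat 24 h replicate 2 or 3, 12 without Heat 24 h replicate 3 and 14 without Paraquat 24 h replicate 1.

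Untreated cells drifted over the same hours. From Control 1 h to Control 24 h, 3 genes rose and 23 fell, against 1.3% and 12.9% of all genes, with a median of -0.37 both in the set and over all genes. Relative to the median gene, 6 rose and 11 fell, while 350 rose and 371 fell over all genes tested. The summed share of the set in controls was 2.06% ± 0.03 of all TPM at 1 h, 1.73% ± 0.02 at 3 h and 1.60% ± 0.03 at 24 h. It moved the other way in trehalose, from 2.31% ± 0.03 to 2.68% ± 0.06 and 3.33% ± 0.06, and reached 2.76% ± 0.07 in mannitol and 2.62% ± 0.01 in NaCl at 24 h, whereas heat and paraquat stood at 1.52% ± 0.03 and 1.65% ± 0.01.

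In 20 of the 150 genes the next or previous ID was also a member, and in 32 another member lay within 5 IDs. In a set of the same size with its maximum at Rehydration 0 or 3 h, these counts were 31 and 45. The IDs g16350, g16353, g16357, g16358 and g16360 formed such a run, described here after its values were seen. All 5 rose at Trehalose 24 h and all 5 rose in NaCl. In g16353 the control read 28.3, 26.2 and 22.6 TPM, trehalose 243, 233 and 210, NaCl 98.0, 90.5 and 95.6 and mannitol 62.6, 55.9 and 67.4, with no overlap between groups. Trehalose exceeded NaCl by 1.26 ± 0.09 and mannitol by 1.87 ± 0.09 in this gene, whereas g16357, at 389, 401 and 364 TPM in trehalose and 363, 378 and 372 in NaCl, did not differ beyond its spread between the 2 osmolytes. Their distance on the chromosome was not analysed here, and reads of near-identical neighbours could have been split between them.

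Genes of the set had a median of 4 annotated transcripts, and tested genes with g IDs had 3. Of 120 members with 2 or more transcripts, 102 had the same leading transcript at 0 h and at the maximum, and 18 had another one. The leading transcript held a median of 65.7% of the TPM of its gene at the maximum.

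The same rule with the maximum at 12 h gave 55 genes, and with the maximum at Rehydration 0 or 3 h it gave 150. Of the former 39 rose at Trehalose 24 h and 21 at NaCl 24 h, and of the latter 58 and 54. The late set, with 80 and 34, stood between them in trehalose and had the smallest share in NaCl. Trehalose set against NaCl gave 50 higher and 3 lower genes in the late set, 19 and 4 in the 12 h set, and 19 and 29 in the rehydration set. These sets were compared by count, and their differences were not tested.

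For comparison, of the 39 tested genes of ARId1, a cluster of LEA and LEA island-located (LIL) genes, 18 were highest at 12 h, 2 at 24 h, 3 at 36 h, 0 at 48 h, 4 at Rehydration 0 h and 12 at Rehydration 72 h. In NaCl at 24 h 34 of them rose and in trehalose 33, and trehalose set against NaCl gave 3 higher and 10 lower. The LEA genes PvLea12a (g17258) and PvLea12b (g17260) were low, with their highest means at Rehydration 3 h. These were 9.14 ± 2.98 TPM and 3.23 ± 2.01 TPM (SD), and PvLea12b read 3.02 ± 0.69 TPM at Rehydration 72 h. The heat shock factor gene HSF (g3611), a transcription factor gene that was set aside, would have met the peak rule, with a mean of 338 TPM at 0 h, 792 at 12 h, 956 at 24 h, 1239 at 36 h and 1512 ± 21 at 48 h, and 802 ± 23 right after drying.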

How the data were processed

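The authors quantified 84 libraries of Pv11 cells with RSEM and Bowtie2, through Trinity scripts, against coding sequences, and deposited TPM per transcript. TPM keep no sequencing depth, so no counting intervals were computed. Transcript TPM were summed per gene here (66333 transcripts, 18248 genes, 0 columns of no sample). The 9450 genes with a mean TPM above 1 were tested on log2(TPM + 1), a scale that understates changes of low genes, with limma 3.58.1 in R 4.3.3 in 1 fit of the 54 stress libraries, with Benjamini-Hochberg adjustment over all genes tested. Files were read with the R package data.table (version 1.17.8), Python 3.11.15, pandas 2.3.3 and numpy 2.4.6, and plots with matplotlib 3.10.9. On simulated data for Trehalose 24 h, with 9450 genes of which 200 were changed 4-fold, 99.5% of the changed genes were recovered and 0.995% of calls were false. In the data 661 genes rose and 971 fell, and the median change of the 150 genes was 1.06 on the log2 scale. The simulated rates therefore do not carry over to the calls made here. An exact permutation test of 3 against 3 libraries cannot go below 0.1 and was not used.

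The members, lists and tests were chosen with earlier results of these data known. Genes named are the 4 with the largest R at each hour of the maximum, the 5 with the highest group mean, those with the largest changes at 24 h whose libraries did not overlap (3 rises each in trehalose and NaCl, 2 falls in trehalose, 2 differences in each direction between trehalose and NaCl), and 3 genes on either side of the limit on R. Other genes were named after their values were seen. The annotation table used here pairs none of the members with a name, so no function groups, positions or sequences are given.

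Replicate numbers were checked for pairing, and labels do not say that a number marks a batch. Same-numbered libraries deviated together, with all 3 correlations above 0.1, in 2 of 19 comparisons, Paraquat 1 h (0.168, 0.153 and 0.150) and Trehalose against NaCl at 24 h (0.276, 0.161 and 0.487). Alternatives were another pseudocount (0.1), no filter, median ratio scaling, fits of only the groups compared, a replicate block and leaving out libraries.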

Additional observations from a re-analysis of the deposited data

Results flagged for a closer look

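Responses at 24 h and at 3 h were compared within each osmolyte by an interaction term in limma, a test added after the data were seen. In trehalose the change of 38 of the 150 genes differed between the hours, larger at 24 h in 36 and smaller in 2, while 15.3% of all genes tested differed. In NaCl 26 differed, 23 larger and 3 smaller, against 25.2% of all genes. In mannitol 25 differed, 23 larger and 2 smaller, against 11.2%. The median difference over all genes was 0.48 in trehalose, 0.63 in NaCl and 0.44 in mannitol on the log2 scale. With the median gene equalised, 15 genes were larger and 4 smaller in trehalose, 10 larger and 18 smaller in NaCl, and 7 larger and 5 smaller in mannitol. Over all genes tested these were 391 and 429 in trehalose, 536 and 553 in NaCl, and 198 and 230 in mannitol. The 3 h responses share the Control 3 h libraries, each of which correlated better with another group than with its own. With each of these left out in turn, the number of genes that differed ran from 29 to 43 in trehalose, 20 to 36 in NaCl and 18 to 29 in mannitol.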

How the results depend on the processing

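The counts of genes rising at 24 h stayed within 1.5 times under all alternatives run. Leaving out replicates or single libraries gave 72 to 87 in trehalose, 31 to 34 in NaCl and 52 to 68 in mannitol, and at 3 h 27 to 42, 16 to 23 and 31 to 50. It gave 6 to 9 rising under any osmolyte at 1 h, 7 to 10 falling at 24 h, 10 to 22 falling at 3 h, and 4 to 16 called under heat at 3 or 24 h or paraquat. Trehalose against NaCl ran from 46 to 52 higher and 2 to 3 lower, trehalose against mannitol from 11 to 15 higher and 2 to 12 lower, NaCl against mannitol from 7 to 8 higher and 24 to 34 lower, and the control drift from 18 to 27. With single Control 3 h libraries left out, added after the data were seen, 29 to 43, 20 to 36 and 18 to 29 genes differed between hours in trehalose, NaCl and mannitol. Median ratio scaling gave 90 rising in trehalose, 62 in NaCl and 73 in mannitol at 3 h, 24 rising at 1 h, 5 falling at 3 h, 4 under heat or paraquat, 2 lower in trehalose than mannitol, 17 in the control drift, 95 members kept, and 19 and 12 genes whose trehalose and mannitol responses differed between hours. A pseudocount of 0.1 gave 15 rising at 1 h, 19 falling at 3 h and 12 under heat or paraquat. Heat or paraquat gave 4 without a filter and 11 with only the compared groups fitted. The cause of these shifts was not tested. Without replicate 1, 2 or 3, the time course kept 131, 132 and 129 of the 150 genes. For values of single named genes, 6079 kept their status, whether called or not called, 38 lost a call, 27 gained one and 0 reversed.

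With the replicate number as a block in the fit of 54 libraries, heat or paraquat gave 6 and trehalose over NaCl 49, and the other counts were unchanged, such as 80, 34 and 60 rising at 24 h. The paired fit of the trehalose and NaCl libraries at 24 h, added after the data were seen, gave 51 higher and 4 lower. The call of g577 was lost under the block.

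TPM give no depth, so low genes, such as the 29 with a maximum under 10 TPM, carry an unknown counting error. With 3 libraries a group, several of which resembled another group, the hour of a maximum is uncertain, most of all between 36 and 48 h.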
